A study of Rattus norvegicus with 18 samples.

Results

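The genes described here mark the thalamus, which lies directly above the hypothalamus in the brain, and they were measured in RNA of rat hypothalamus. Of 8 named genes (Tcf7l2, Prkcd, Lef1, Rgs16, Gbx2, Synpo2, Tnnt1 and Ntng1), 7 had at least 1 probe, that is 10 probes of 45598, and 6 had a probe bright enough to be tested, among 13055 tested genes. A probe was taken as a member where its transcript accession maps to 1 of these genes. The genes had been picked for their levels on these same arrays, so their spread and their co-variation are given as a description, with no test. Tcf7l2 was matched by no probe and is not analysed here.

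Each of 18 male Wistar rats, 9 weeks old by the labels, gave 1 array. In the group of stress with exercise (n = 6), rats had free use of a running wheel for 4 weeks and were placed in restraint during the last 3 weeks. The stress group (n = 6) had the same restraint, for 1 to 1.5 h on 5 days a week, and no wheel. The control group (n = 6) had neither. No group had exercise without stress, so running is seen only on top of restraint. By the labels 1 operator dissected each hypothalamus under a microscope. The labels do not say whether rats shared cages or litters.

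A level below is log2 of the processed signal relative to the 75th percentile of spots on the same array. A level of 0 is that percentile, and 1 unit is a 2-fold step. Levels of different probes are not compared. On a single array 63.6% to 77.8% of probes exceeded background clearly, and the 75th percentile was an intensity of 1963 to 2422. The 18 arrays were spread over 5 slides. All 6 rats of stress with exercise were on slides 4 and 5, together with stress rats 5 and 6. The remaining stress rats and all control rats were on slides 1 to 3. Signal was also looked up for 20 hypothalamic peptide and transcription factor genes. Of these 19 were tested and 18 were well above background on all 18 arrays. All 12 tested genes of a further thalamic list and all 13 of a striatal and septal list were so too. Only genes well above background on at least 5 of 6 arrays of 1 group were tested, so such counts follow largely from that filter. The count was 1 of 2 for a habenular list, 2 of 3 for a pituitary, 7 of 8 for a cortical and hippocampal and 5 of 7 for a choroid plexus list. It was 5 of 5 for a reticular and zona incerta and 8 of 8 for an oligodendrocyte list. These counts are not used to tell this tissue from its neighbours.

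The thalamus relays sensory, motor and limbic signals to the cortex, and its glutamatergic neurons take on their identity under a small set of transcription factors. Lef1 and Tcf7l2 encode DNA-binding partners of beta-catenin in the Wnt pathway, and Gbx2 encodes a homeodomain factor needed in mouse for thalamic differentiation and for the growth of thalamic axons to the cortex. Prkcd encodes protein kinase C delta, a kinase switched on by diacylglycerol. Rgs16 encodes a protein that shortens G protein signals by speeding GTP hydrolysis. Ntng1 encodes netrin-G1, a lipid-anchored membrane protein of thalamocortical axons that binds a synaptic adhesion partner. Synpo2 encodes an actin-binding protein, and Tnnt1 the slow skeletal form of troponin T. In tissue taken whole, fewer cells of a type and less RNA per cell cannot be told apart.

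The DNA before a transcription start of each gene is shown because Lef1, Gbx2, Prkcd and Ntng1 moved together across rats, as described below, whereas Tnnt1 did not move with them. Sequences are from RefSeq on build GRCr8, 250 bases up to 1 transcription start per gene, 5′ to 3′ on the gene's strand, and capitals mark a GC box (GGGCGG or its reverse complement). The windows are chr2:222340463-222340712 on the plus strand for Lef1, chr9:97959884-97960133 on the minus strand for Gbx2, chr16:5805840-5806089 on the minus strand for Prkcd, chr2:200515032-200515281 on the minus strand for Ntng1 and chr1:78348785-78349034 on the plus strand for Tnnt1. In RefSeq the span of Prkcd, and that of Lef1, begins further upstream than this start, so the Prkcd window lies wholly and the Lef1 window partly inside the gene.
Lef1: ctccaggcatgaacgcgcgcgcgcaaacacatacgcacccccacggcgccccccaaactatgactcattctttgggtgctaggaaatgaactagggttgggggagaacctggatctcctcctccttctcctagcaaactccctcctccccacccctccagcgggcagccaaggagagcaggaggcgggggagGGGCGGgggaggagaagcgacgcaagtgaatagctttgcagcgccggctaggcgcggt
Gbx2: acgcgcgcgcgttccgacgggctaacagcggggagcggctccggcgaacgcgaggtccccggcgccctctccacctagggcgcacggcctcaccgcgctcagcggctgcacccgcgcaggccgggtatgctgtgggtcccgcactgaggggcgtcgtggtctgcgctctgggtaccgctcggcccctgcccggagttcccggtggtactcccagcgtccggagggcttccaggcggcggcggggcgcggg
Prkcd: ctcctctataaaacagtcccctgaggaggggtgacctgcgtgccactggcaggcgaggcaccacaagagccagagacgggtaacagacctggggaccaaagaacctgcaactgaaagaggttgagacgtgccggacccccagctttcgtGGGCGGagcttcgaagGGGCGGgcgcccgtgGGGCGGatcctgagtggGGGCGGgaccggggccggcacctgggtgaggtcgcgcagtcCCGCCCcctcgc
Ntng1: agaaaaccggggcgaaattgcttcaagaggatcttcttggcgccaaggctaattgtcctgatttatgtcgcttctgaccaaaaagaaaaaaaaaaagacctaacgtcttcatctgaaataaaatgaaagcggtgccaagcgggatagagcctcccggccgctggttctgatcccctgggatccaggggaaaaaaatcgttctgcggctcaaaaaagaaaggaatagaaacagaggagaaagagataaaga
Tnnt1: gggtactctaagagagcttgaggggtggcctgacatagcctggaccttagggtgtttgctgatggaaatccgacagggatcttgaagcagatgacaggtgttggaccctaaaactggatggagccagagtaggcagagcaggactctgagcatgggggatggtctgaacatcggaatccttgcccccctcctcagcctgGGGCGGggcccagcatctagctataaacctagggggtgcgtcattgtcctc

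All 8 named genes had such a window. The core recognised by TCF and LEF factors, CTTTGA on either strand, was in 0 of the 8 windows and in 13.9% of 33469 windows of this length. The homeodomain core TAATTA, which reads alike on both strands, was in 1 of the 8 (Synpo2) and in 4.86% of all windows. The GC box was in 6 of the 8 and in 30.5% of all windows. The 8 windows held 44.8% to 76.4% of G and C, against a median of 51.2% over all windows, and all but Ntng1 lay above it. The GC box and the window length were chosen after a first search, so this share is a description only. The Rgs16 window, 1 of the 6, lies wholly inside the RefSeq span of that gene. Among the genes that moved together, Prkcd had 5 matches to the GC box and Lef1 had 1, while Gbx2 and Ntng1 had 0. None of the 3 motifs was found in all of the windows of the genes that moved together.

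Lef1 was low on the same few arrays in each group. With stress and exercise its level ran from -3.48 to -1.96 with a median of -2.59. In stress rats it ran from -4.16 to -2.66 with a median of -3.04, and in control rats from -3.60 to -2.27 with a median of -2.62. The 3 groups overlapped over most of their ranges. The lowest rat was stress rat 2 and the highest was rat 2 of stress with exercise, a 4.57-fold span in signal.

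Gbx2, by its brighter probe, ran from -1.95 to -0.46 with a median of -1.31 in rats with stress and exercise. It ran from -2.31 to -1.34 with a median of -1.54 in stress rats, and from -2.26 to -0.33 with a median of -1.25 in control rats. The 6 stress rats all lay below the control mean, and the groups overlapped, with control rats 3, 5 and 6 inside the range of the stress rats. The dimmer Gbx2 probe followed the brighter one with a Pearson r of 0.863 over 18 arrays.

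Prkcd had the widest spread of the 6 tested members of the set. Its brighter probe ran from -1.16 to 1.67 with a median of 0.67 in rats with stress and exercise, from -1.93 to 0.82 with a median of 0.02 in stress rats, and from -1.25 to 1.38 with a median of 0.75 in control rats. From the lowest rat (stress rat 2) to the highest (rat 2 of stress with exercise) the signal differed 12.2-fold. Within a group the span was 7.14-fold with stress and exercise, 6.75-fold in stress and 6.19-fold in control. The standard deviation over 18 arrays was 1.08, which ranked 49 among 13055 genes, against a median of 0.132 over all genes. The dimmer Prkcd probe followed the brighter one with an r of 0.893, and 0.964 without stress rat 6. That rat gave the highest value of the dimmer probe, -3.75, and a level of 0.33 by the brighter one.

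Ntng1 ran from -4.00 to -2.85 with a median of -3.21 in rats with stress and exercise. In stress rats it ran from -4.42 to -3.19 with a median of -3.52, and in control rats from -4.15 to -2.78 with a median of -3.31. As for the genes above, the lowest value fell on stress rat 2, and the highest was that of control rat 1. Its 2 probes had an r of 0.905.

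Rgs16 ran from -5.84 to -3.83 with a median of -5.49 in rats with stress and exercise, from -5.93 to -4.72 with a median of -5.58 in stress rats, and from -5.75 to -4.74 with a median of -5.16 in control rats. Rat 3 of stress with exercise stood above all others, and the groups overlapped.

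Tnnt1 was the least variable gene of those tested here. It ran from -0.06 to 0.56 with a median of 0.32 in rats with stress and exercise, from -0.01 to 0.58 with a median of 0.30 in stress rats, and from 0.15 to 0.66 with a median of 0.46 in control rats. The span over 18 rats was 1.64-fold and the standard deviation 0.223, at rank 3382 of 13055. Rat 3 of stress with exercise, the highest for Rgs16, was the lowest for Tnnt1.

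Synpo2 had 1 probe, well above background on 1 of 18 arrays (rat 4 of stress with exercise, at -6.32). The other 17 arrays lay between -9.84 and -7.94 and were not well above background. The probe was not tested and no fold is given.

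**Figure D1:**
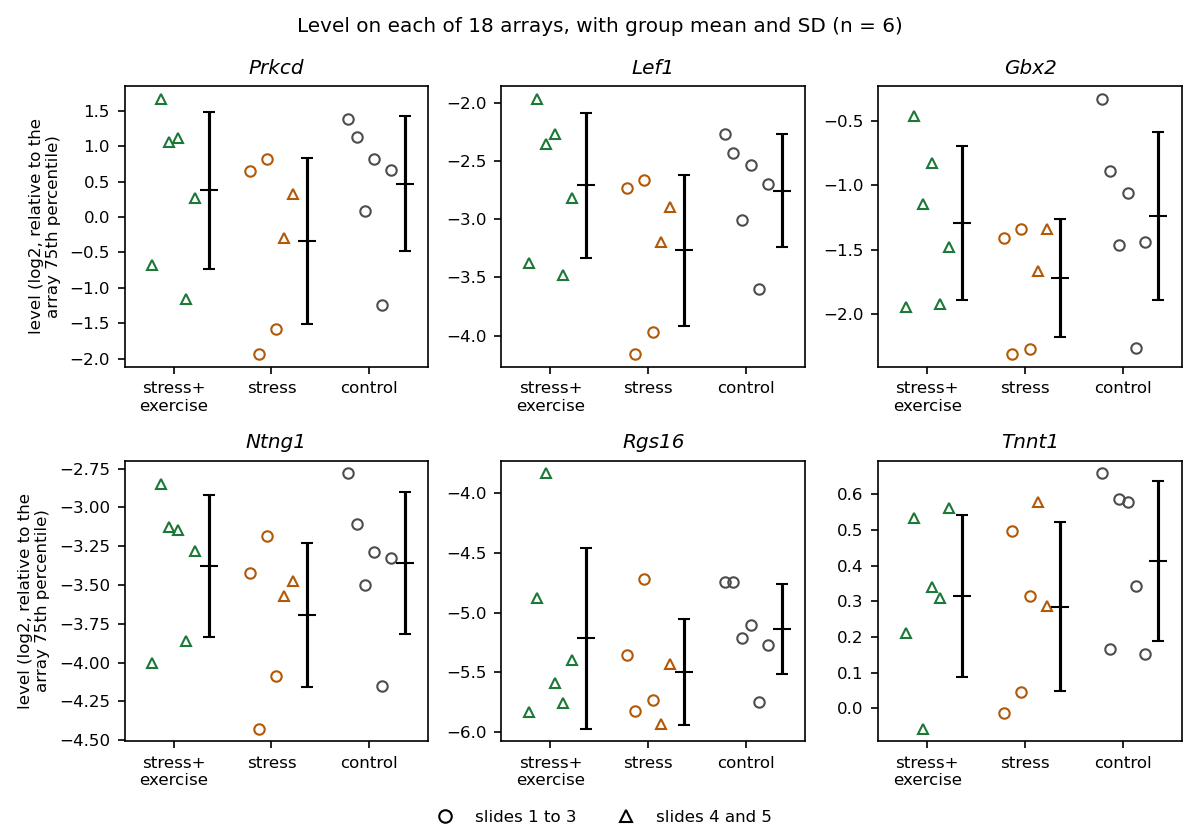
Level of each tested gene (log2, relative to the 75th percentile of the array; each panel has its own axis) in rats of stress with exercise, stress and control, by its brightest probe. Each symbol is 1 rat, circles on slides 1 to 3 and triangles on slides 4 and 5, and the bar is the group mean and SD of 6 rats. The groups overlap in every panel, and Prkcd covers the widest range, 3.61 log2 units.

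Lef1, Gbx2, Prkcd and Ntng1 varied together across rats far more than they differed between groups. The r between any pair of them lay between 0.946 and 0.991 over 18 arrays, with a median of 0.961 over the 6 pairs. This set of 4 was singled out after the values were seen. The median was 0.968 among the 10 arrays of slides 1 to 3 and 0.962 among the 8 arrays of slides 4 and 5. It was 0.958 once each group was centred on its own mean. For Prkcd with Lef1, leaving out the 2 arrays farthest from the median, stress rats 2 and 4, gave an r of 0.985. These correlations share arrays, scaling and RNA samples, and they carry no p.

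The order of rats was nearly the same for these 4 genes. Stress rat 2 was the lowest of 18 for each of them. The next lowest for Prkcd, Lef1 and Gbx2 was stress rat 4, and for Ntng1 control rat 5. Rats 1 and 5 of stress with exercise completed the lowest 5 for each gene. At the top were rat 2 of stress with exercise for Prkcd and Lef1, and control rat 1 for Gbx2 and Ntng1. Rats at both ends therefore came from different groups and different slides.

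Rgs16 followed the 4 genes more loosely, with r from 0.655 (Gbx2) to 0.722 (Prkcd) and a median of 0.711. Without rat 3 of stress with exercise the median was 0.791. Among slides 1 to 3 it was 0.908, and among slides 4 and 5 it was 0.642. Tnnt1 did not move with the set, at r of -0.10 with Prkcd, -0.07 with Lef1, 0.13 with Gbx2, 0.01 with Ntng1 and -0.32 with Rgs16. Over all 15 pairs of the 6 tested genes the median r was 0.719.

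**Figure D2:**
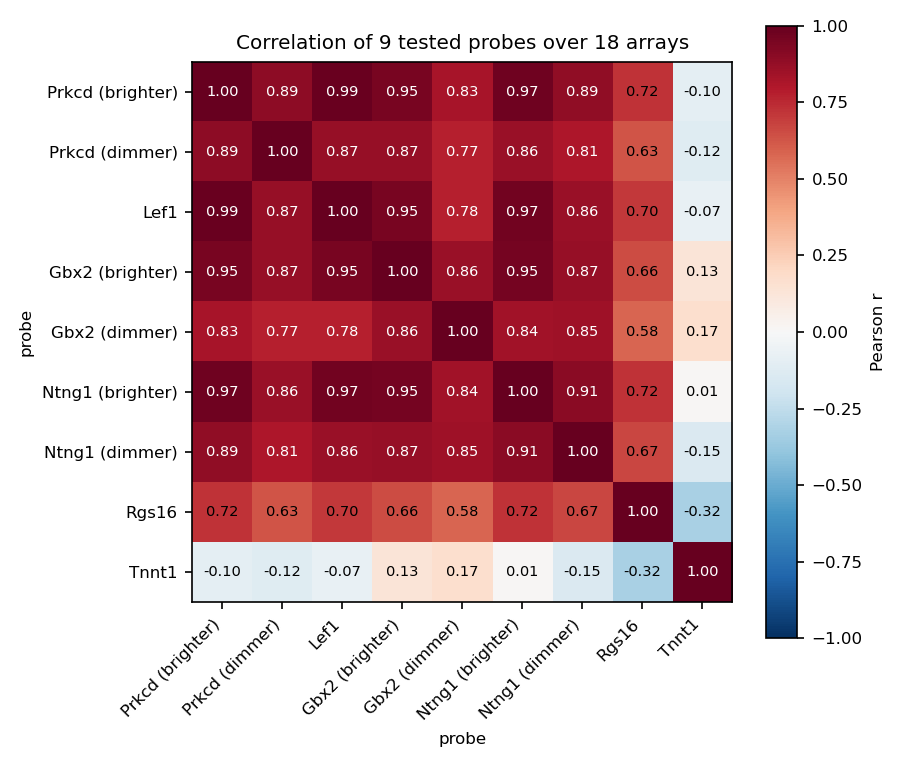
Pearson r over 18 arrays between the 9 tested probes, both probes being shown where a gene has more than 1. Lef1 and both probes each of Gbx2, Prkcd and Ntng1 form a block of high values, Rgs16 joins it more weakly, and Tnnt1 lies near 0 or below it except with Gbx2.

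**Figure D3:**
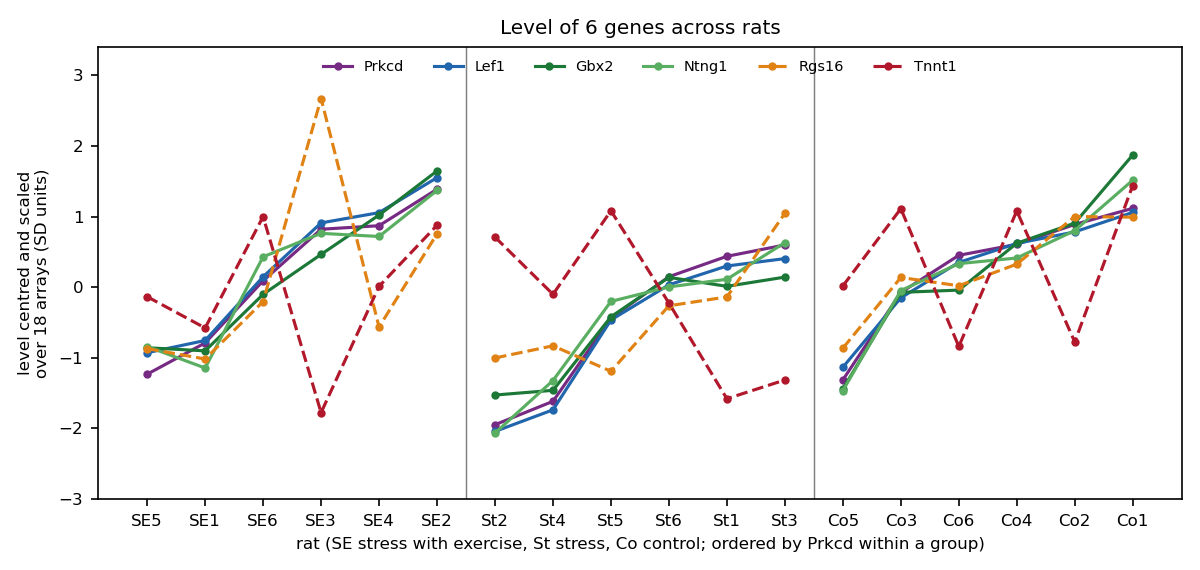
Level of each tested gene centred and scaled over 18 arrays (SD units), for single rats of stress with exercise, stress and control, ordered within a group by Prkcd. The solid lines of Prkcd, Lef1, Gbx2 and Ntng1 run together, from stress rat 2 at the bottom to rat 2 of stress with exercise and control rat 1 at the top, and the dashed lines of Rgs16 and Tnnt1 leave them.

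Restrained rats with and without a wheel were compared to see what the wheel changed. Among 31299 tested probes limma called 3.73%, taking as its threshold 0.05 for the p adjusted by Benjamini-Hochberg across those probes. Of the 6 thalamic genes 0 passed, and 0 had an unadjusted p under 0.05. All 6 averaged higher with exercise. Lef1 averaged -2.71 ± 0.62 with stress and exercise and -3.27 ± 0.65 in stress (SD over 6 rats each). The difference was 0.56 on the log2 scale with a standard error of 0.32 (limma adjusted p = 0.302). Prkcd averaged 0.38 ± 1.11 and -0.34 ± 1.17 in the same groups, a difference of 0.72 with a standard error of 0.59 (limma adjusted p = 0.486). For both genes 4 of 6 rats with exercise lay above the stress mean. Gbx2 differed by 0.43, Ntng1 by 0.32, Rgs16 by 0.29 and Tnnt1 by 0.03. The dimmer Gbx2 probe went the other way, at -0.09. The median difference of the 6 genes was 0.37, against 0.03 over 13055 genes. Because 4 of the 6 genes give nearly the same order of rats, their shared direction is not 6 separate observations.

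Stress and control rats were compared to see what restraint alone left. Of all tested probes 0% passed with limma, although 3696 had an unadjusted p under 0.05. All 6 genes averaged lower in stress and 0 had an unadjusted p under 0.05. Prkcd averaged -0.34 ± 1.17 in stress and 0.47 ± 0.95 in control (SD, n = 6 each), a difference of -0.81 with a standard error of 0.59 (limma adjusted p = 0.592). Lef1 averaged -3.27 ± 0.65 in stress and -2.76 ± 0.49 in control, a difference of -0.51 with a standard error of 0.32 (limma adjusted p = 0.535). Gbx2 differed by -0.48, Rgs16 by -0.36, Ntng1 by -0.34 and Tnnt1 by -0.13. The median was -0.42, against 0.00 over all genes. This comparison and the one before share the 6 stress arrays, 2 of which (stress rats 2 and 4) were the lowest for Prkcd, so opposite signs in them are not independent.

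Exercised restrained rats were also set against control rats, which spans both interventions. Here 26.1% of all tested probes passed, and of the thalamic genes 0 of 6 did, with 0 at an unadjusted p under 0.05. The differences were -0.10 for Prkcd, 0.05 for Lef1, -0.06 for Gbx2, -0.02 for Ntng1, -0.08 for Rgs16 and -0.10 for Tnnt1, with standard errors from 0.13 for Tnnt1 to 0.59 for Prkcd. Prkcd averaged 0.38 ± 1.11 with stress and exercise and 0.47 ± 0.95 in control (SD, n = 6 each). The lowest adjusted p in this comparison, 0.258 by limma, was that of the dimmer Gbx2 probe, at -0.44. No probe of these genes separated any pair of groups without overlap. How many of all tested probes do so was not counted, so this is a description of these probes only. A difference that misses the threshold is not shown to be 0, and a 2-fold difference of Prkcd, 1 log2 unit, would lie within 2 of its standard errors.

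**Figure D4:**
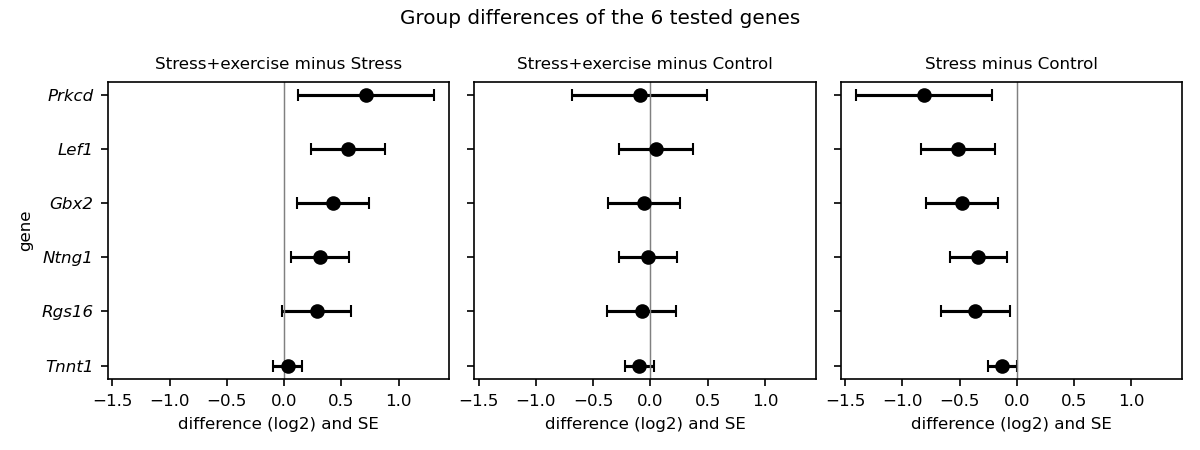
Difference in mean level (log2) with its standard error from limma, for the 6 tested genes in the 3 comparisons, 6 rats per group. Differences are above 0 for stress with exercise minus stress, near 0 for stress with exercise minus control, and below 0 for stress minus control, from 0.72 and -0.81 for Prkcd down to 0.03 and -0.13 for Tnnt1.

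Slide and scan day were not balanced over the groups, and the differences of Prkcd and Lef1 varied between them. For stress with exercise minus stress, Prkcd differed by 0.48 within scan day 1 (2 rats each), by 0.83 within scan day 2 (4 rats each) and by 0.36 within slides 4 and 5. For stress minus control it differed by -0.07 within scan day 1 (2 against 4 rats), by -1.77 within scan day 2 (4 against 2 rats) and by -0.99 within slides 1 to 3. For stress with exercise minus control the difference was 0.41 within day 1 and -0.94 within day 2, and with slide set as a covariate it was -0.62 with a standard error of 1.09. That fit links the 2 groups only through the stress rats, since slides 1 to 3 held no exercised rat and slides 4 and 5 no control rat. The Prkcd values so far are from its brighter probe. For stress with exercise minus stress the dimmer probe was at -0.24 on day 1, 0.55 on day 2 and -0.38 within slides 4 and 5. For stress minus control it was at 0.91 on day 1, -1.71 on day 2 and -0.63 within slides 1 to 3. Lef1 behaved like the brighter Prkcd probe, at 0.37 and 0.65 on the 2 days for stress with exercise minus stress. It was at -0.08 and -1.03 for stress minus control. None of these within-day or within-slide differences of Prkcd or Lef1 passed the test. The dimmer Gbx2 probe did pass within scan day 2, at -1.12 for stress with exercise minus control (limma adjusted p = 0.0341), with the brighter one at -0.73 (adjusted p = 0.225). That fit set 4 exercised rats against 2 control rats on other slides, and 5675 of 31298 probes passed in it.

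The share of the variance over 18 arrays that lay between groups was below that of the median gene for each of these genes. Such a share also holds differences between slides, since slide and group were not balanced, and the part of slide in it was not tested. It was 18.2% for Lef1, 14.4% for Gbx2, 11.8% for Prkcd, 11.9% for Ntng1, 8.68% for Rgs16 and 6.40% for Tnnt1, against a median of 22.4% over 13055 genes. Within groups the standard deviation was 1.08 for Prkcd, 0.59 for Lef1 and 0.46 for Ntng1.

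Most of the other thalamic genes tested varied in the same way. Likeness was measured as the r, over 18 arrays, between a gene and the mean profile of the 6 tested genes, each centred and scaled. Of 13 further thalamic genes 12 were tested, and 7 of them had an r above 0.9, against 69 of 12974 genes (0.532%). This list too was chosen with earlier results of these data known, so the share is a description, with no test. Ramp3, a partner that alters the ligand choice of calcitonin-type receptors, had an r of 0.965. Shox2, a homeobox gene, had 0.957, Gabrd, the delta subunit of the GABA-A receptor, 0.936, and the LIM-homeobox gene Lhx9 0.884. Foxp2 (0.657) and Cacna1g (0.614) followed the profile loosely, and Calb2 (0.195) and Lhx2 (0.148) hardly did. Shox2 ran from -6.07 to -1.91 over the 18 arrays. In the group comparisons 0 of the 12 passed in any, and their medians were 0.14 for stress with exercise minus stress, 0.00 for stress with exercise minus control and -0.21 for stress minus control.

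Over all named genes, those most like the profile were Sprn (r 0.975), which encodes the prion-related protein Shadoo, Rsph6a (0.973), the RNA-editing enzyme gene Adarb1 (0.968), the Wnt ligand gene Wnt3 (0.967) and the phosphatase gene Ppm1j (0.967). Ramp3, Ces5a (0.965), LOC100911946 (0.963), the receptor gene Gpr63 (0.961) and Pcp4 (0.961), which encodes a calmodulin regulator, followed. Their values lie close together, so the order among them is not firm. For Sprn the r was 0.963 among slides 1 to 3 and 0.997 among slides 4 and 5. At the opposite end were Map2k3 (-0.821), a kinase gene of the p38 pathway, Psme1 (-0.820), Lgals3bp (-0.793), Cd44 (-0.787) and Tac1 (-0.781), the substance P precursor gene.

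Taken singly, Prkcd was most like Lef1 (r 0.991), Ramp3 (0.990) and Gabrd (0.983), and Lef1 most like Prkcd, Rgs4 (0.987) and Adarb1 (0.987). Gbx2 was most like Ptpn4 (0.971), Ildr2 (0.971) and Kitlg (0.969), and Ntng1 most like Sprn (0.988), Wnt3 (0.982) and Ramp3 (0.980). For Rgs16 the highest r was 0.796, with Rasgrp1. Tnnt1 was most like Inhba (0.787), Crot (0.785) and Cfap77 (0.759).

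In the families of the members some relatives moved along. Of 8 further protein kinase C genes tested, 2 had an r above 0.9 with the thalamic profile, the highest being 0.949 and the median 0.631. Prkch had an r of 0.919 and Prkca of -0.07. The calls named below for stress with exercise against control stand beside 15.3% of 13055 genes that rose and 11.2% that fell. All exercised rats lay on other slides than all control rats, and with slide as a random block, or slide set as a covariate, 0 genes of the protein kinase C, RGS, Wnt, striatal and hypothalamic lists passed. With slide as a random block Chrnb4 of the habenular list and Mag of the oligodendrocyte list did pass. Neither passed with slide set as a covariate. Against control rats Prkca rose with stress and exercise, by 0.22 (limma adjusted p = 0.00176). Prkch differed by -0.11 in that comparison and by -0.50 for stress minus control (adjusted p = 0.347). Of 14 tested RGS genes other than Rgs16, 13 had an r, and 2 were above 0.9, Rgs3 at 0.950 and Rgs4 at 0.945. In stress with exercise against control 5 of the 14 rose, Rgs9 (0.35), Rgs20 (0.30), Rgs5 (0.29), Rgs14 (0.18) and Rgs19 (0.13), and 0 fell.

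Lef1 is itself part of the thalamic profile, so its own r is not compared with that of other genes here. A list of 14 tested genes of the Wnt and beta-catenin pathway, in which Lef1 acts, was set against that profile. Of them 0 had an r above 0.9, the highest being 0.628. Their median was 0.23, against 0.03 over all genes compared, and 12 of the 14 had a positive r. The list does not hold Wnt3, the ligand gene named above at 0.967. In stress with exercise against control 6 of the 14 rose and 1 fell, against 15.3% and 11.2% of all genes. Pygo1, a nuclear co-factor, rose by 0.46, and Tle1, a co-repressor of the family, by 0.27, while Tcf7l1, a relative of Lef1, fell by 0.40 on the log2 scale (limma adjusted p = 0.0187). With slide set as a covariate Pygo1 was at -0.01, Tcf7l1 at 0.10 and Tle1 at 0.20. Notum, a secreted inhibitor of Wnt ligands, differed by 0.08. In the other comparisons 0 of the 14 passed.

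Each tested gene was set against the mean level of 8 lists of marker genes of neighbouring tissues and cells, 48 relations in all. Since the genes had been picked for their levels on these arrays, the correlations are given as a description, with no p. Lef1, Gbx2, Prkcd and Ntng1 ran opposite to the hypothalamic list. Over 18 arrays Prkcd had an r of -0.780 and a rho of -0.719 with the mean of 19 hypothalamic genes. Lef1 had an r of -0.752, Ntng1 of -0.720 and Gbx2 of -0.704. Rgs16 was weaker, at -0.53, and Tnnt1 had the opposite sign, at 0.21. Of the 19 genes 17 had a negative r with the thalamic profile, against 46.1% of all genes. Among them were Oxt (-0.64), the oxytocin gene, Nr5a1 (-0.51), a factor of the ventromedial nucleus that was well above background on 12 of 18 arrays, Npy (-0.46) and Trh (-0.39).

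Within slide sets the sign for Prkcd was the same. Its r was -0.871 among slides 1 to 3 (n = 10), -0.652 among slides 4 and 5 (n = 8), -0.768 with each group centred on its mean and -0.633 without the 2 arrays farthest from the median. Across 27 other ways of scaling or choosing arrays the r lay between -0.871 and -0.633 for Prkcd and between -0.876 and -0.606 for Lef1. It lay between -0.797 and -0.579 for Gbx2, between -0.878 and -0.432 for Ntng1 and between -0.733 and -0.392 for Rgs16. For Tnnt1 it stayed positive, between 0.134 and 0.410.

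The habenular list rests on 2 tested genes of 9. Of these, Chrna3 had an r of 0.746 with the thalamic profile and Chrnb4 of -0.003. Chrna3 was well above background on 17 of 18 arrays. The mean of the list had an r of 0.636 with Prkcd, 0.634 with Rgs16, 0.630 with Gbx2 and 0.620 with Ntng1. It was 0.573 with Lef1 and -0.12 with Tnnt1. Chrnb4 fell in stress with exercise against control, at -0.61 (limma adjusted p = 0.00379). It was at -0.57 with slide as a random block (limma adjusted p = 0.0326) and at 0.09 with slide set as a covariate. The mean of the striatal and septal list had an r of 0.06 with Prkcd. Its genes differed among themselves, since Tac1 had an r of -0.78 with the thalamic profile, whereas Ngfr, Chat, Slc5a7 and Lhx8 lay near 0. Of its 13 tested genes 8 rose in stress with exercise against control, with Ngfr at 0.83, Chat at 0.73, Slc5a7 at 0.70 and Lhx8 at 0.67, and 0 passed in the other comparisons. Ngfr was at 0.70, Chat at 0.66, Slc5a7 at 0.62 and Lhx8 at 0.43 with slide set as a covariate. The standard errors were then 0.23 for Lhx8 to 0.42 for Chat, and 0 of the list passed. Over all genes 15.3% rose and 11.2% fell in stress with exercise against control. Of 19 hypothalamic genes 1 rose in stress with exercise against control (Npy, 0.32) and 2 fell, Trh by 0.32 and Lhx6 by 0.27 on the log2 scale. With slide set as a covariate Lhx6 was at 0.04, Npy at 0.45 and Trh at -0.18. The hypothalamic mean ran from -1.19 to -0.89 with stress and exercise, from -1.21 to -0.81 in stress and from -1.29 to -1.04 in control. The part of these marker shifts in the values of the thalamic genes was not tested.

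**Figure D5:**
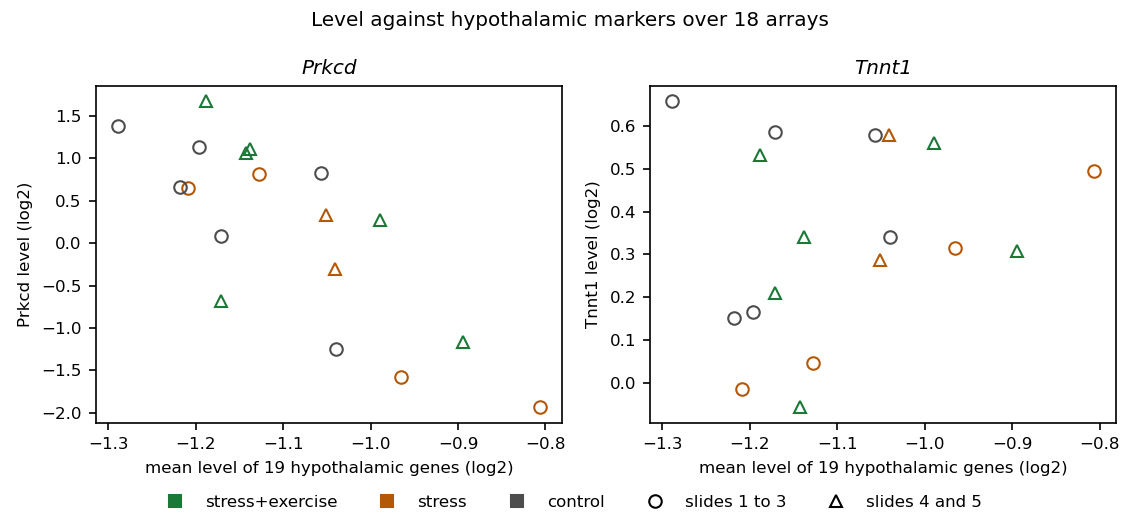
Level of Prkcd (left) and of Tnnt1 (right) against the mean level of 19 hypothalamic genes, both on the log2 scale, 1 symbol per rat, coloured by group and shaped by slide set. Prkcd is lowest in stress rat 2, where the hypothalamic mean is highest (-0.81), and Tnnt1 shows no such order.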

How the data were processed

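RNA of 18 hypothalami was hybridised to Agilent 1-colour rat arrays, 1 per rat. The deposited intensity used is each spot's processed signal, background-corrected by Agilent Feature Extraction per the file headers. Its version is 12.1.0.3 in the headers, with build rn4, and 9.1 in the submitters' processing notes. The authors' deposited series matrix holds the same intensity times 1 constant per array (1.02 to 1.24), on a linear scale and not centred by gene, with column medians from 156.67 to 176.491. The origin of the constant is not stated. The labels give 100 ng of RNA in one place and 200 ng in another.

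Control and outlier spots were left out (297 to 580 outliers per array), 0 spots were saturated, and spots of 1 probe were averaged. Values are log2 processed signals from which the 75th percentile of the array's spots (controls excluded) was subtracted. A probe was tested if well above background on at least 5 of 6 arrays of 1 group (31299 probes). Probes were named by accession through RefSeq (GRCr8): 21220 had 1 symbol, 0 several and 24378 none. The brightest tested probe stands for a gene, and other probes are given beside it.

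Groups were compared with limma 3.58.1 in R 4.3.3 (lmFit, eBayes, group as the term, all arrays), with two-sided p adjusted by Benjamini-Hochberg over all tested probes. Marker relations were given two-sided permutation p-values (100000 resamples), used only for a count among the alternatives. The fit was tested on simulated data: of 200 probes given a log2 change of 1 it recovered 186 for stress with exercise minus stress and 182 against control, with 13 and 10 false calls. The simulated noise was independent between probes and held no slide or scan day effect, and the changed probes were drawn from all tested probes. The recovery therefore does not describe genes with a spread as wide as that of Prkcd.

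Members and lists were chosen with earlier results of these data known. Beyond the members, up to 4 genes of a list were named by the largest difference in any comparison, with the 10 most and 5 least like the members' profile and the 3 most like each member. Lhx6, Rgs14 and Rgs19 were named after their values were seen, to complete small counts, as were Foxp2, Cacna1g, Calb2 and Lhx2, the least like of their list. The GC box and the 250-base window were chosen after a first search. Alternatives were normexp (on median signals, since the files hold no mean signal, with an offset of 50), quantile and no scaling, the authors' matrix, other filters, slide and scan day, and leaving out each array. Replicate numbers do not pair the arrays. The number of arrays limits the precision. A limma p-value sets a group difference against the spread between rats within groups, and it does not separate group from slide.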

Additional observations from a re-analysis of the deposited data

How the results depend on the processing

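The count of the 6 genes that passed stayed at 0 in each comparison under every alternative run, which included the fit with a replicate block (0, 0 and 0), a fit that was checked because groups share replicate numbers; same-numbered arrays correlated between -0.25 and 0.18. Without each array in turn it ranged from 0 to 0. By the brightest probe, the sign of a difference for Prkcd, Lef1, Gbx2, Ntng1 and Rgs16 held in every alternative for stress with exercise minus stress. For stress minus control it held for Prkcd, Lef1 and Rgs16, and turned within scan day 1 for Gbx2 (0.05), Ntng1 (0.04) and Tnnt1 (0.02). The sign of the dimmer Prkcd probe did not hold in either comparison, as given above by slide and day. For stress with exercise minus stress the dimmer Gbx2 probe ran from -0.25 to 0.04 over the alternatives. The dimmer Ntng1 probe ran from -0.03 to 0.22. For stress with exercise minus control Prkcd, Lef1, Gbx2 and Ntng1 were above 0 within scan day 1 and below it within scan day 2 (Prkcd 0.41 and -0.94), while Rgs16 and Tnnt1 were below 0 on both. Within scan day 2 Gbx2 was at -1.22 and Ntng1 at -0.84 for stress minus control. The median r of the 15 gene pairs ranged from 0.697 to 0.802 without each array and from 0.648 to 0.913 over the other alternatives.

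Of the 48 marker relations 8 had an adjusted permutation p under 0.05 by both Pearson and Spearman. All 8 were relations with the hypothalamic or the habenular list. These p support nothing here, because the genes had been picked on these arrays, and the count was not stable. It became 0 within slides 1 to 3, 0 within slides 4 and 5, 0 without the 2 arrays farthest from the median, 3 with normexp, 5 with no scaling, 4 with the 75th percentile over probes, and 0 to 8 without each array (0 without rat 5 of stress with exercise, stress rat 4 or 5, or control rat 1, 2 or 5); normexp, no scaling, that percentile and leaving out arrays were added here after seeing the data.

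Counts over all probes moved more. For stress with exercise minus stress, 1166 became 2 without the filter, 0 with slide as a random block, 3110 with scan day as a block, 5 with slide set as a covariate, 3 within slides 4 and 5, 0 and 7599 within scan days 1 and 2, 2 with the replicate block, and 1 to 4632 without each array. Against control, 8154 became 1757 with random slide and 7 with slide set. For stress minus control, 0 became 2 with quantile, 467 with scan day, 1 with slide set and 3745 within day 1. With no scaling 33 were higher and 1340 lower for stress with exercise minus stress, against 365 and 801, and 722 and 4448 against control, against 3435 and 4719; quantile gave 4926 and 3980 there. The cause was not tested. Probes near background, as of Synpo2, were limited by signal.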
